A study of Bos taurus with 31 samples.

Results

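The RAB GTPases, the SNARE proteins and the regulators that act with them form the machinery by which vesicles are moved, docked and fused in a secretory cell. They were described in mammary epithelial organoids of dairy cows, before pregnancy and in lactation. The 96 genes were taken from the count table by name: RAB, STX, VAMP, SNAP, SYT, SYTL or STXBP followed by a number, with an optional letter for RAB, leaving out the SNAPC transcription factors. They were 51 RAB GTPases and 45 SNAREs and regulators among 14084 rows, or 13407 distinct counted loci. The names, not the measured levels, chose the members.

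Organoids are the clumps of epithelium that remain when biopsy tissue is digested with enzymes and single cells are washed away. The virgin group held 15 libraries from heifers biopsied at 14 months of age, and the lactating group held 16 libraries from the cows at 40 to 60 days of lactation. Of the 16 cows, 15 gave both libraries and the cow of L495 gave only a lactating one. No treatment or genotype is given for either group. Each cow was sampled later in life for the lactating library than for the virgin one, which leaves stage confounded: it cannot be told apart from the cow's age or from having calved. In library names V stands for virgin, L for lactating, and the number is that of the cow.

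RAB GTPases mark each membrane of the cell and, while bound to GTP, recruit the motors and tethers that carry and catch a vesicle. SNAREs on the vesicle (VAMPs) and on the target membrane (syntaxins and SNAPs) then zip together and drive fusion, held ready by STXBP proteins and, where release answers to calcium, triggered by synaptotagmins. A lactating mammary cell sends casein and lactose out by Golgi-derived vesicles and milk fat as membrane-wrapped droplets, and the synaptotagmin-like proteins are effectors through which RAB27 holds secretory granules at the plasma membrane.

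Total counts ranged from 20128378 to 60114505 in virgin and from 26827018 to 72138358 in lactating libraries. Levels are given as CPM, counts brought to a common library size after TMM scaling, a factor that offsets the space taken up by a few very abundant genes. The casein genes, LALBA and PAEP took 0.0281% to 0.681% of the counts of distinct loci in virgin and 0.242% to 50.7% in lactating libraries, with L538 (0.242%) and L478 (0.574%) lowest among the latter. All of these 6 milk genes were called higher, as the labels of stage require. V479 stood apart: of the 87 tested members it held the highest virgin value for 29 and the lowest for another 29. It held the highest virgin value at 26.7% of all tested loci, against 33.3% of the members. Calls that changed without these libraries are given beside the members concerned, or, where gained without V479, with the differences within cows.

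Some counted loci do not hold 1 gene alone. RAB27A shared every count with RSL24D1 and CCPG1, RAB8A with HSH2D and FAM32A, RAB3D with TMEM205, RAB35 with GCN1, RAB5B with SUOX, STX5 with NXF1 and VAMP2 with PER1, so values under these 7 names belong to the joined locus. The locus was also over 2 times the gene's RefSeq span for VAMP8 (6.27 times), RAB27B (2.78 times) and SNAP47 (2.13 times). For RAB21 it covered 0.0269 of the span. The authors' lengths were close to whole gene spans (median ratio 1), so a level per length would dilute genes with long introns, and levels are not compared between genes here.

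Markers of other cells moved with stage. Luminal keratins and EPCAM were present at a mean of 58.7 CPM or more in both groups, as organoids of epithelium should show, with KRT8, KRT18, KRT19 and CDH1 called lower and ELF5 higher. All 6 endothelial markers were called higher (summed 33 to 647 CPM in virgin, 223 to 1484 CPM in lactating), as were 6 of 6 for T lymphocytes (2.59 to 26.5 and 17.6 to 50.9 CPM), 5 of 6 for macrophages (13.7 to 61 and 106 to 546 CPM) and 3 of 3 tested for plasma and B cells. Of 6 fibroblast markers 4 were called lower (323 to 21223 and 500 to 1557 CPM), but the medians of the sum were 947 and 1006 CPM. V502 held the highest virgin value of COL1A1 (6201 CPM), COL1A2 (5638 CPM) and COL3A1 (8275 CPM). COL1A1 was lower in 7 of 15 cows and COL1A2 in 6, against 12 for DCN. LUM and PDGFRA were not called. Myoepithelial markers gave 2 higher and 2 lower of 6, and of 3 adipocyte markers FABP4 was higher and PLIN1 lower. Of neural and glial markers 6 of 9 were measured. S100B and SOX10 were called higher, TUBB3 was not called, and RBFOX3 was among the 3 too low to test. No listed marker was at 0 in every library of a group. The part of these cells in the changes of the members was not tested, and in bulk samples fewer cells of a type and less RNA per cell cannot be told apart.

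Of the 96 members, 87 had counts enough to be tested. In lactation 28 were called higher and 17 lower, and 42 were not called (edgeR's quasi-likelihood F test, with p-values adjusted by Benjamini and Hochberg's method over all 13180 tested rows and a threshold of 0.05). Over all tested rows 24.2% were called higher, 30.9% lower and 55.1% in either direction. Among the members the shares were 32.2% higher and 19.5% lower, 51.7% in all, so that the share called was near the background. The counts by role below are of few members (3 to 16 tested in a role) and were not tested against the shares of all rows. The median log2 fold change was 0.07 over the members and -0.08 over all rows. By more than 2-fold, 6 members were higher (RAB26, SYT17, RAB17, SYT15, RAB7B and RAB20) and 1 was lower (SYTL5), against 5.39% and 2.8% of all rows. Changes were small for many of the called members, with 18 of the 45 under 1.5-fold. Without TMM factors the median of all rows moved by -0.48, and 11 members were called higher and 47 lower, against 10.5% and 58.8% of all rows. All directions below are relative to that shift. The 11 that were still called higher were the 11 with a log2 fold change above 1, with RAB38 (adjusted p = 0.0498) and SYT7 (0.05) at the threshold. All 17 falls were still called, but the shift of all rows was downward, so that fit could not put the falls to a test.

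**Figure D1:**
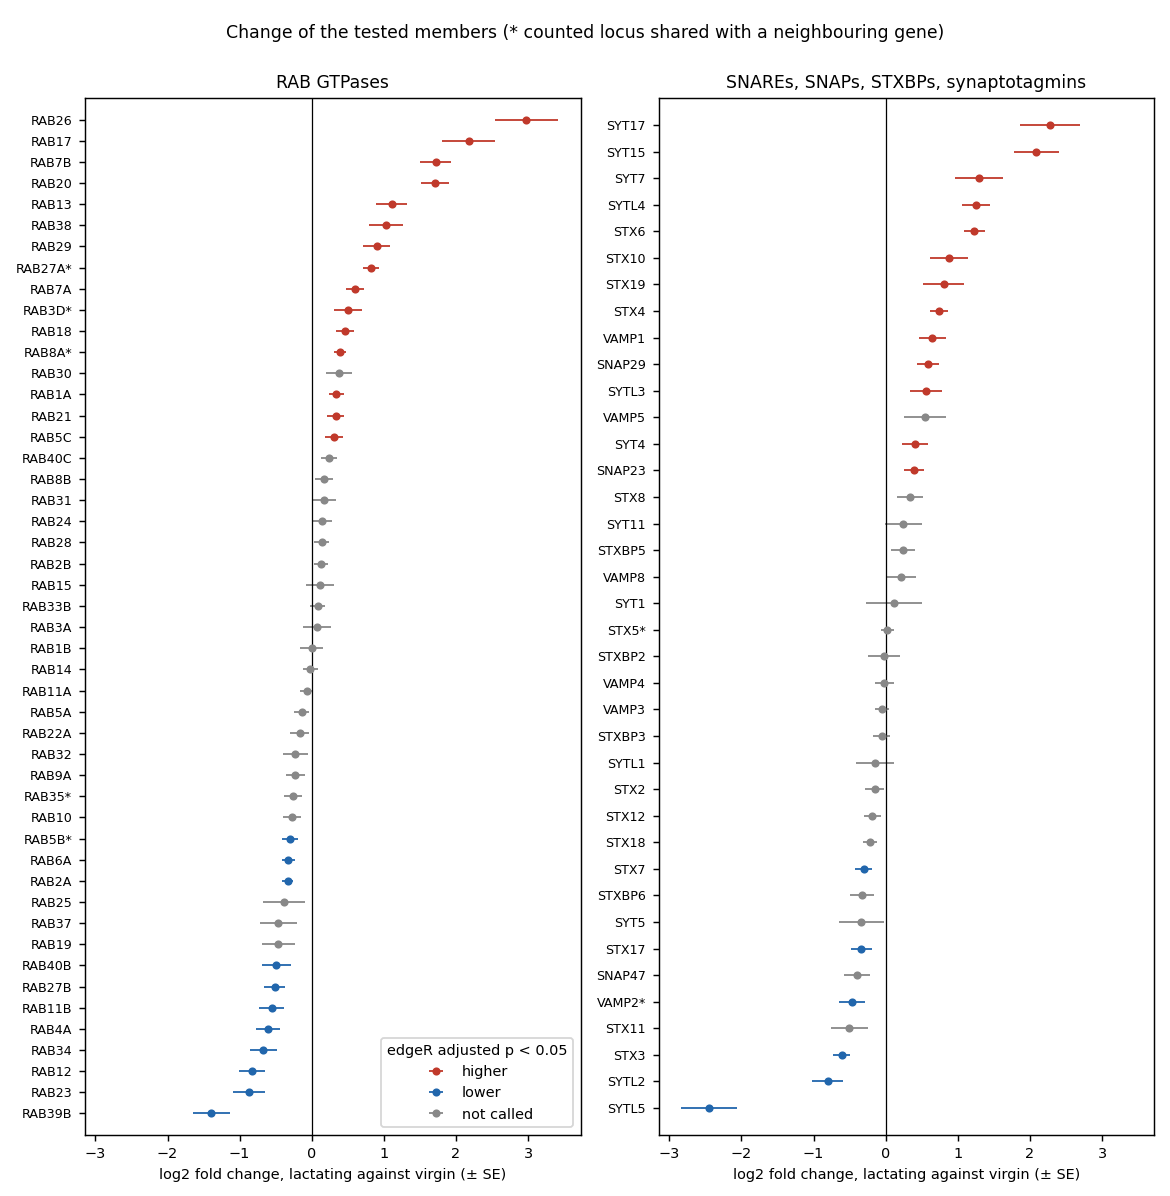
Log2 fold change of lactating against virgin (x axis, ± SE) for the 48 tested RAB GTPases (left) and all but 1 of the 39 tested SNAREs and regulators (right), sorted by size. Red marks members called higher, blue lower and grey not called. RAB26 and SYT17 lead the rises, SYTL5 has the furthest fall, and most members lie within 1 log2 unit of 0.

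The RAB GTPases of regulated secretory vesicles were divided: of 6 tested, 3 were called higher, 1 lower and 2 were not called. RAB26 (ENSBTAG00000000279), which associates with secretory granules of exocrine acinar cells in the rat, ran from 0.144 to 0.592 CPM in virgin libraries, with a median of 0.347. In lactating libraries it ran from 0.0876 to 7.54 CPM, with a median of 2.76. The groups were apart but for L478 and L538: 14 of 16 lactating libraries lay above every virgin one, and these 2 lay below every virgin one. Its log2 fold change was 2.97 ± 0.44 (SE; edgeR adjusted p = 1.14e-06), and 3.16 without L478 and L538. The fit with the cow as a block gave 2.38 and limma-voom 2.12, over 1.5 times less as a fold.

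RAB27A (ENSBTAG00000012408), which docks secretory granules and lysosome-related organelles at the plasma membrane, ran from 58.8 to 160 CPM with a median of 138 in virgin libraries. In lactation its locus ran from 161 to 298 CPM with a median of 226, and the groups did not overlap, as for 1.93% of all tested rows. The log2 difference was 0.82 ± 0.11 (edgeR adjusted p = 3.19e-07), higher in 15 of 15 cows, with 0.28 (adjusted p = 0.0803) without TMM factors. RSL24D1 and CCPG1 lie in the same counts, so how much of this is RAB27A was not tested. RAB27B, its close relative, went the other way. Its virgin libraries spanned 12 to 37.4 CPM (median 22.2) and its lactating ones 10.1 to 23.6 CPM (median 15.3), or -0.51 ± 0.14 in log2 units (edgeR adjusted p = 0.00307), lower in 12 of 15 cows with largely overlapping ranges. RAB3D, the RAB3 form of exocrine granules, ran from 8.8 to 34.1 CPM in virgin and from 13.3 to 43.5 CPM in lactating libraries (0.50 ± 0.19, edgeR adjusted p = 0.0242). That call on the locus shared with TMEM205 was lost without L479 (adjusted p = 0.0506), and the value was -0.00072 without TMM factors. RAB3A (0.07 ± 0.20, edgeR adjusted p = 0.778) and RAB37 (-0.46 ± 0.26, adjusted p = 0.124), also of secretory granules, were not called.

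**Figure D2:**
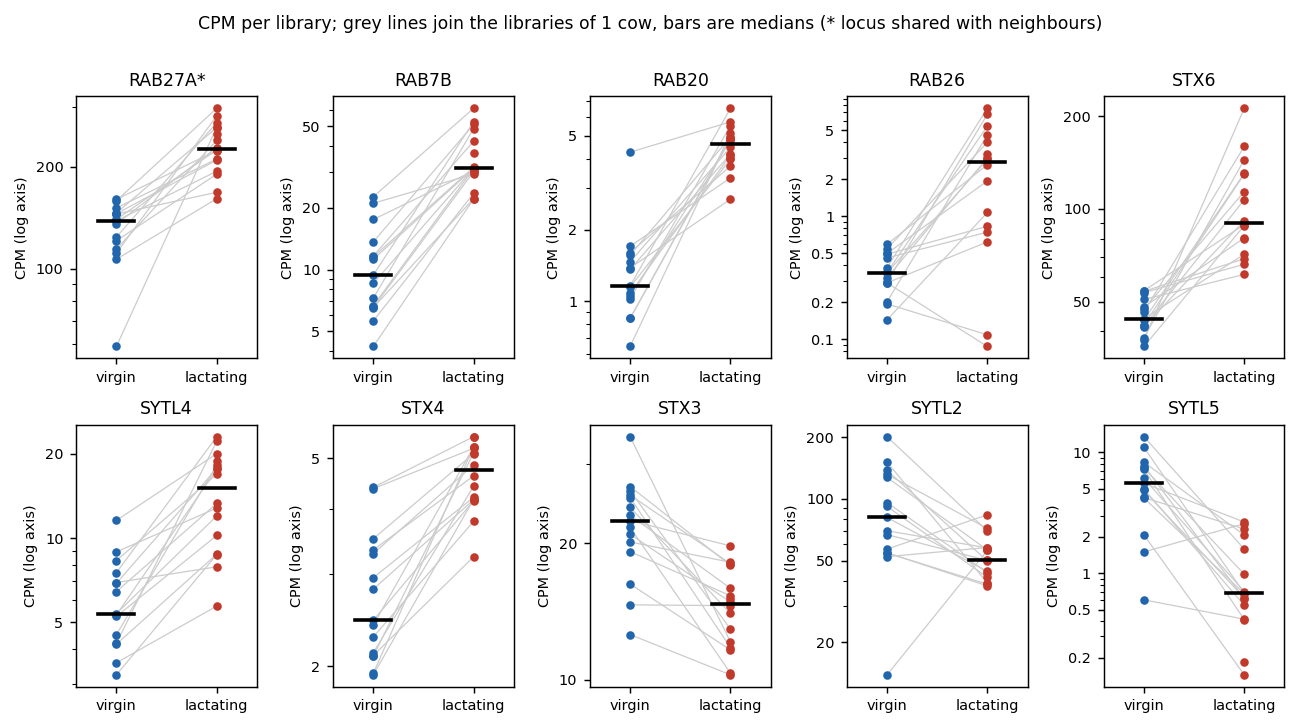
CPM (y axes, log scale) of 10 members in the 15 virgin (blue) and 16 lactating (red) libraries, 1 point per library, with a black bar at the median and grey lines joining the libraries of 1 cow. The groups do not overlap for the RAB27A locus and STX6, and the 2 low lactating points of RAB26 are L478 and L538.

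RAB GTPases of late endosomes and lysosome-related organelles were called higher in 4 of 8 cases and lower in 1. RAB7B (ENSBTAG00000012774), which returns cargo from late endosomes to the Golgi, had virgin values from 4.22 to 22.6 CPM (median 9.4). Lactating values were 22.1 to 61.2 CPM (median 31.2), of which 14 of 16 lay above every virgin library. The rise of 1.72 ± 0.21 (edgeR adjusted p = 5.49e-08) was seen in 15 of 15 cows. RAB7A, which governs fusion of late endosomes with lysosomes, went from 53.3 to 165 CPM (median 64.4) in virgin to 95.4 to 158 CPM (median 103) in lactating libraries. Its highest virgin value was that of V479, and the rise of 0.60 ± 0.12 (edgeR adjusted p = 8.16e-05) was 0.16 and no longer called without TMM factors (adjusted p = 0.316). RAB29, a Golgi and lysosome GTPase, rose by 0.90 ± 0.19, which was not called without TMM factors (0.30, adjusted p = 0.215). RAB38, needed for melanosome formation, rose by 1.03 ± 0.23, from a virgin median of 1.44 to 2.84 CPM, while its relative RAB32 was not called (-0.23 ± 0.17, edgeR adjusted p = 0.27). RAB39B, known from neurons, fell by 1.39 ± 0.25 and lay below every virgin library in 7 of 16 lactating ones, at a median of 0.329 CPM. RAB9A and RAB24 were not called.

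Among 16 endosomal RAB GTPases, 4 were called higher and 4 lower. RAB17 (ENSBTAG00000017624), an epithelial GTPase of apical recycling and transcytosis, ran from 0.0524 to 2.08 CPM with a median of 0.329 in virgin and from 0.958 to 3.89 CPM with a median of 2.15 in lactating libraries. The lactating library was the higher one in 15 of 15 cows, and 8 of 16 lactating libraries lay above every virgin one, of which V479 was highest. RAB17 rose by 2.18 ± 0.37 (edgeR adjusted p = 8.78e-06). RAB20 (ENSBTAG00000031962), of phagosome and endosome maturation, was similar: its virgin libraries spanned 0.643 to 4.26 CPM (median 1.16), with V479 again highest, and its lactating ones 2.7 to 6.54 CPM (median 4.63). It rose by 1.70 ± 0.19 (edgeR adjusted p = 9.64e-09) in 15 of 15 cows. RAB5C of early endosomes (0.31 ± 0.13, edgeR adjusted p = 0.0345) and RAB21, an integrin-trafficking GTPase read from a fragment of its gene (0.33 ± 0.12, adjusted p = 0.0163), were called higher. Without TMM factors they stood at -0.13 and -0.14. Both calls were lost without L478 and L538 (adjusted p = 0.0599 and 0.0583). That of RAB5C was also lost on leaving out L504, L507, V478, V490, V538, V595, V598, V610 or V615 singly, with adjusted p up to 0.0688. V479 held the highest virgin value of RAB5C, 155 CPM. Without V479 RAB5C stood at 0.47 (edgeR adjusted p = 1.4e-06), and with the cow as a block at 0.39 (adjusted p = 0.0113).

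The endosomal GTPases that fell were RAB12, RAB4A, RAB11B and the RAB5B locus. RAB12, which routes receptors from recycling endosomes to lysosomes, fell by 0.83 ± 0.18 (edgeR adjusted p = 2.26e-04), from a virgin median of 51.7 CPM (range 11.6 to 76) to a lactating median of 26.2 CPM (range 19.9 to 40.1), with V479 the lowest virgin library. RAB4A, of rapid recycling, fell by 0.61 ± 0.17, with virgin libraries at 11.6 to 57.1 CPM and lactating ones at 12.5 to 24.9 CPM. RAB11B, of slow recycling, fell by 0.56 ± 0.17, but its medians were close, at 23.8 CPM in virgin and 21.5 CPM in lactating libraries, and V479 alone reached 91.5 CPM. Without V479 it stood at -0.34, still called (edgeR adjusted p = 0.0145). The RAB5B call (-0.30 ± 0.11, edgeR adjusted p = 0.0175) was lost with the cow as a block (adjusted p = 0.0675). The RAB11 forms central to recycling, RAB11A (-0.07 ± 0.09, edgeR adjusted p = 0.523) and the epithelial RAB25 (-0.39 ± 0.29, adjusted p = 0.26), were not called. RAB11A spanned 61.3 to 112 CPM in virgin and 62.2 to 112 CPM in lactating libraries, almost the same range. RAB5A, RAB14, RAB15, RAB22A, RAB31 and the RAB35 locus were not called either, with log2 fold changes from -0.26 to 0.17. Without L478 and L538, RAB22A (-0.32, edgeR adjusted p = 0.0133) and the RAB35 locus (-0.31, adjusted p = 0.0341) were called lower.

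Of the RAB GTPases of the endoplasmic reticulum and Golgi, 9 were tested, 2 were called higher and 3 lower. RAB18, which coats lipid droplets, spanned 32.6 to 113 CPM (median 85.8) in virgin and 80 to 158 CPM (median 115) in lactating libraries, with V479 lowest. It was higher by 0.46 ± 0.13 (edgeR adjusted p = 0.00236) and in 13 of 15 cows, and stood at -0.09 without TMM factors. RAB1A, which carries cargo from the endoplasmic reticulum to the Golgi, was higher by 0.34 ± 0.10 (edgeR adjusted p = 0.00396), from a median of 163 CPM to 200 CPM, and stood at -0.14 without TMM factors. RAB2A (-0.33 ± 0.08) and RAB6A (-0.32 ± 0.09), of the same early route and of carriers leaving the Golgi, were each lower in 14 of 15 cows. RAB6A went from a median of 74 CPM (39.1 to 99.4) to 59.9 CPM (45.4 to 79.1). RAB34, of the Golgi and cilium, fell by 0.67 ± 0.19. RAB1B, RAB2B, RAB30 and RAB33B were not called, and RAB30 was called higher without L478 and L538 (0.45, edgeR adjusted p = 0.0423). The GTPases that bring Golgi and recycling carriers to the cell surface were 4, of which 2 were called higher. RAB13, of tight junction assembly, rose by 1.11 ± 0.22 (edgeR adjusted p = 6.26e-05), from a median of 7.33 CPM (3.01 to 26.4) to 19.1 CPM (11.6 to 27.7). The RAB8A locus was higher by 0.39 ± 0.08 in 14 of 15 cows, and stood at -0.09 without TMM factors. RAB10 (-0.28 ± 0.13, edgeR adjusted p = 0.0605) and RAB8B were not called. RAB10 was called lower without L478 and L538 (-0.36, edgeR adjusted p = 0.0129), the libraries in which it was highest among lactating ones.

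Outside these roles, RAB23, an inhibitor of hedgehog signalling, fell by 0.87 ± 0.22, and RAB40B by 0.49 ± 0.20 (edgeR adjusted p = 0.0402). The RAB40B call was lost in 14 of the 31 fits without 1 library, 8 of them lactating (adjusted p up to 0.0673), and without L478 and L538 together (adjusted p = 0.0804). RAB40C (0.23 ± 0.11) was not called, and was called with the cow as a block (0.26, edgeR adjusted p = 0.0441). RAB19 and RAB28 were not called.

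Syntaxins were called higher in 4 of 13 cases and lower in 3. STX6 (ENSBTAG00000020458), a SNARE of the trans-Golgi network and endosomes, ran from 35.7 to 54.2 CPM with a median of 44 in virgin libraries. In lactating libraries it ran from 61.3 to 212 CPM with a median of 90.3, and the groups did not overlap. L538 (212 CPM) and L478 (160 CPM) were the highest lactating libraries, the reverse of their place for RAB26. STX6 rose by 1.23 ± 0.14 (edgeR adjusted p = 2.33e-08), not called over 2-fold (adjusted p = 0.161 for that test), and by 1.06 without these libraries. STX10, also of the trans-Golgi network, rose by 0.88 ± 0.27, which was not called without TMM factors (0.40, adjusted p = 0.111).

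The plasma membrane syntaxins moved apart. STX4 (ENSBTAG00000007523), typical of the basolateral membrane, went from 1.92 to 4.4 CPM (median 2.45) in virgin to 3.24 to 5.5 CPM (median 4.74) in lactating libraries, higher in 15 of 15 cows. It rose by 0.74 ± 0.13 (edgeR adjusted p = 1.21e-05), with 0.22 (adjusted p = 0.177) without TMM factors. STX3 (ENSBTAG00000012820), typical of the apical membrane, went from 12.6 to 34.4 CPM (median 22.5) to 10.2 to 19.7 CPM (median 14.7), lower in 15 of 15 cows. It fell by 0.61 ± 0.12 (edgeR adjusted p = 7.7e-05). STX19, an epithelial syntaxin, was higher by 0.81 ± 0.28 at a median of 0.72 CPM, not called without TMM factors (0.28, adjusted p = 0.346). STX2 (-0.15 ± 0.13) and STX11 (-0.50 ± 0.26, edgeR adjusted p = 0.101) were not called. STX11, a syntaxin of lymphocyte granules, was highest in L538 (43.7 CPM) and L478 (22.5 CPM), and was called lower without them (-0.92, edgeR adjusted p = 2.27e-04) and with the cow as a block (-0.62, adjusted p = 0.0255). Leaving out L538 alone gave -0.78 (edgeR adjusted p = 0.00237) and leaving out V490 alone gave -0.58 (adjusted p = 0.0458).

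Endosomal STX7 fell by 0.31 ± 0.12, a call lost on leaving out L479, L502, L507, L595, L598 or V478 singly (adjusted p up to 0.0629). Autophagosomal STX17 (-0.34 ± 0.15, edgeR adjusted p = 0.0498) lay at the threshold and lost its call in 22 of the 31 fits without 1 library (adjusted p up to 0.114), without L478 and L538 together (adjusted p = 0.0778) and with the cow as a block (adjusted p = 0.126). The STX5 locus, the syntaxin of the early Golgi, was at 56.8 to 128 CPM in virgin and 67.6 to 96 CPM in lactating libraries and was not called (0.02 ± 0.09, edgeR adjusted p = 0.857). STX8, STX12 and STX18, of endosomes and the endoplasmic reticulum, were not called. STX8 was called higher with the cow as a block (0.43, edgeR adjusted p = 0.0192).

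Of 6 VAMPs 1 was called higher and 1 lower, and of 3 SNAPs 2 were called higher. These counts are too small to set against the 24.2% higher and 30.9% lower of all rows. VAMP8, the VAMP of apical and exocrine granule release, ran from 6.3 to 40.5 CPM (median 10.5) in virgin and from 9.62 to 23.6 CPM (median 16.2) in lactating libraries, with V479 highest. Its log2 fold change was 0.21 ± 0.21 (edgeR adjusted p = 0.41), and 0.42 without V479 (adjusted p = 0.0439). VAMP3, of recycling endosomes, spanned 31.4 to 68.8 CPM in virgin and 40.4 to 85.4 CPM in lactating libraries (-0.05 ± 0.10, edgeR adjusted p = 0.703). VAMP1 was called higher (0.65 ± 0.18), not so without TMM factors (0.09, adjusted p = 0.605), and the VAMP2 locus lower (-0.47 ± 0.18, edgeR adjusted p = 0.0257), a call lost without V479 (-0.28, adjusted p = 0.0796). VAMP5 (0.54 ± 0.29) was not called and VAMP4 was at -0.02 ± 0.13. With the cow as a block VAMP5 was called higher (0.88, edgeR adjusted p = 0.00657). SNAP23, the ubiquitous partner of plasma membrane syntaxins, went from a median of 26.4 CPM (9.07 to 44.1) to 36.6 CPM (21.1 to 46.6), with V479 lowest among virgin and L478 and L538 lowest among lactating libraries. It was higher by 0.39 ± 0.14 (edgeR adjusted p = 0.0196) and stood at -0.16 without TMM factors. SNAP29, of endosomes and autophagosomes, was higher by 0.59 ± 0.16 in 14 of 15 cows, not called without TMM factors (0.07, adjusted p = 0.686). SNAP47 was not called (-0.40 ± 0.18).

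With all libraries and scaling factors, edgeR, DESeq2 and limma-voom called 0 of 5 syntaxin binding proteins, and 0 had an unadjusted edgeR p under 0.05. STXBP2, of epithelia and leukocytes, was at -0.02 ± 0.22, and STXBP3, which pairs with STX4, at -0.05 ± 0.12. STXBP2 spanned 4.47 to 32.4 CPM in virgin libraries, with V479 highest, and 5.72 to 12.1 CPM in lactating ones. STXBP5 and STXBP6, which bind SNAREs without promoting fusion, were at 0.24 ± 0.17 and -0.33 ± 0.17. STXBP6 was called lower without V479 (-0.39, edgeR adjusted p = 0.0368), and also on leaving out L509 alone. Without TMM factors STXBP2 (-0.45, edgeR adjusted p = 0.0284), STXBP3 (-0.52, 0.0065) and STXBP6 (-0.84, 2.51e-04) were called lower, as were 58.8% of all rows. STXBP5 was not called there (-0.33, adjusted p = 0.145).

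Of 13 synaptotagmins, 7 were tested, 4 were called higher and 0 lower. SYT17 (ENSBTAG00000014229) was at 0.0697 to 0.724 CPM (median 0.35) in virgin and 0.204 to 6.18 CPM (median 1.08) in lactating libraries, with L479 highest. It rose by 2.28 ± 0.42 (edgeR adjusted p = 3.27e-05) in 14 of 15 cows. SYT15 (ENSBTAG00000018356), whose C2 domains bind no calcium, rose by 2.09 ± 0.31 in 15 of 15 cows but stayed at a median of 0.847 CPM. SYT7 (ENSBTAG00000019947), a calcium sensor of lysosome and granule exocytosis, went from a median of 0.896 CPM (0.23 to 5.31) to 3.51 CPM (0.871 to 5.46). It rose by 1.29 ± 0.33 (edgeR adjusted p = 0.00136) in 13 of 15 cows, and V502 held the high virgin value. SYT4 was abundant in both groups, at 39.7 to 229 CPM in virgin and 64.9 to 298 CPM in lactating libraries. Its call (0.41 ± 0.18, edgeR adjusted p = 0.0488) was lost in 20 of the 31 fits without 1 library (adjusted p up to 0.0849). The fit without V479 was among them (0.34, edgeR adjusted p = 0.0501). SYT4 stood at -0.12 without TMM factors. SYT1, the sensor of fast synaptic release, varied widely among virgin libraries, from 1.82 to 62.4 CPM, against 5.75 to 51.2 CPM in lactation (0.12 ± 0.39, edgeR adjusted p = 0.823). SYT5 and SYT11 were not called.

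The synaptotagmin-like proteins, effectors of RAB27, went both ways: of 5 tested, 2 were called higher, 2 lower and 1 (SYTL1, -0.15 ± 0.27) was not called. SYTL4 (ENSBTAG00000005724), or granuphilin, which ties granules to RAB27 and syntaxins, ran from 3.25 to 11.6 CPM (median 5.38) in virgin and from 5.72 to 23 CPM (median 15.1) in lactating libraries. Of the 16 lactating libraries 11 lay above all virgin ones, and L538 and L478 were the lowest. It rose by 1.25 ± 0.20 (edgeR adjusted p = 2.81e-06) in 15 of 15 cows. SYTL5 (ENSBTAG00000004955) ran from 0.601 to 13.5 CPM (median 5.55) in virgin and from 0.144 to 2.65 CPM (median 0.679) in lactating libraries. It fell by 2.45 ± 0.38 (edgeR adjusted p = 2.94e-06), lower in 14 of 15 cows, with V479 the lowest virgin library. SYTL2 (ENSBTAG00000000460), an effector at the apical membrane of epithelia, fell by 0.80 ± 0.22 (edgeR adjusted p = 0.00234), from 13.9 to 201 CPM (median 81.3) to 37.7 to 83.7 CPM (median 50.2). SYTL3 (0.56 ± 0.23, edgeR adjusted p = 0.0361) lost its call on leaving out L502, L507, L595, L598, V468, V478, V490, V504, V538, V610 or V615 singly (adjusted p up to 0.0706) and without TMM factors (0.07, adjusted p = 0.81).

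The members left untested were RAB3C, RAB6B, RAB36, SYT2, SYT3, SYT8, SYT9, SYT12 and SYT14, all with group means of 0.307 CPM or less. With no filter SYT14, at a mean of 0.206 CPM in virgin and 0.0188 CPM in lactating libraries, was lower (-3.27, edgeR adjusted p = 7.26e-08). In the same fit RAB36, RAB6B and RAB3C were also called. The total behind SYT14 was 143 counts over all libraries.

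Ratios of related genes within a library do not depend on how libraries are scaled, so 13 pairs were compared by the change in the log2 ratio of their counts within each of 15 cows (two-sided permutation test by sign flips, Benjamini-Hochberg over the 13 pairs). STX3 lost ground to STX4 by 1.36 ± 0.17 (SE) on the log2 scale in 15 of 15 cows (permutation p = 6.1e-05, the smallest that 15 cows allow; adjusted p = 3.96e-04). With STX3 lower and STX4 higher in 15 of 15 cows, the direction and p of this pair followed from those values and are not separate evidence. SYTL2 lost ground to SYTL4 by 1.81 ± 0.23, again in 15 of 15 cows (permutation p = 6.1e-05, adjusted p = 3.96e-04). The RAB27A locus gained on RAB27B by 1.28 ± 0.16 in 14 of 15 cows (permutation p = 1.22e-04, adjusted p = 5.29e-04). SYTL4 and the RAB27A locus were higher in 15 of 15 cows, and SYTL2 and RAB27B were called lower. The direction of these pairs largely followed from those values and is not separate evidence either. VAMP2, on its shared locus, changed by -0.73 ± 0.13 against VAMP8 (permutation adjusted p = 0.00119) and RAB5A by -0.51 ± 0.17 against RAB5C (adjusted p = 0.0294), each in 13 of 15 cows.

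The other 8 pairs were not called. RAB11A against RAB11B changed by 0.33 ± 0.18 (permutation adjusted p = 0.055) and RAB11A against RAB25 by -0.10 ± 0.27 (adjusted p = 0.722). SNAP23 against SNAP29 changed by -0.23 ± 0.22, VAMP3 against VAMP8 by -0.42 ± 0.22 and RAB1A against RAB1B by 0.24 ± 0.20. RAB3A against the RAB3D locus (-0.40 ± 0.27) and the RAB8A locus against RAB8B (0.23 ± 0.18) were also without a call.

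**Figure D3:**
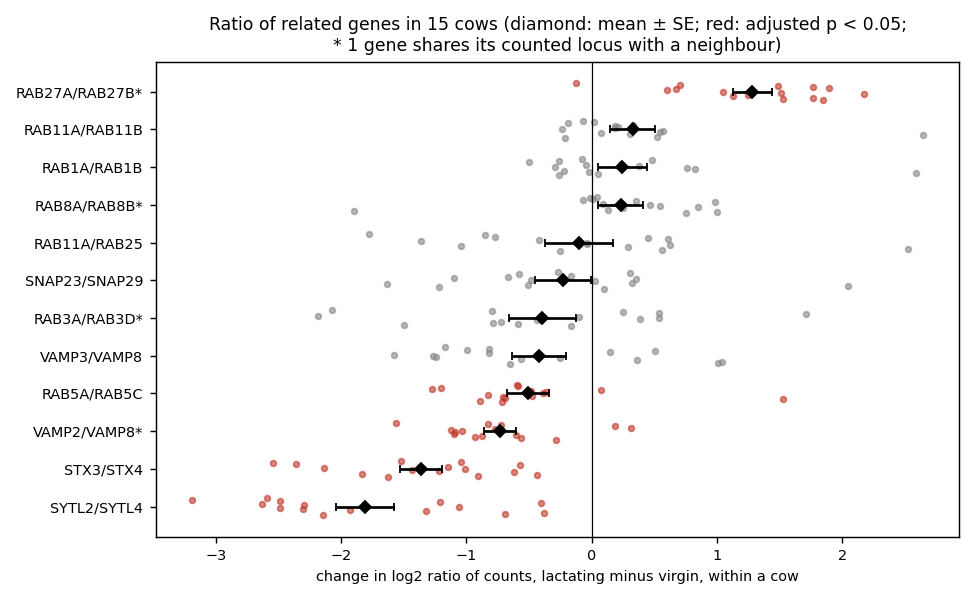
Change in the log2 ratio of counts of 2 related genes from virgin to lactating within each of 15 cows (x axis, 1 point per cow) for all but 1 of the 13 pairs, with a black diamond at the mean ± SE. Red pairs passed the permutation test after adjustment. For STX3 against STX4 and SYTL2 against SYTL4 all 15 points lie below 0.

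Within cows the called members kept their direction to different degrees. Of the 28 called higher, 8 were higher in 15 of 15 cows and 26 in at least 12. Of the 17 called lower, STX3 alone was lower in all 15 and 11 were lower in at least 12. The calls came from the same libraries, so these counts are not separate evidence, and no such count was made over all called rows. In the pair L479 and V479, RAB18 was higher in lactation by 2.21 log2 units and SNAP23 by 2.11, and SYTL2 (1.98) and STX17 (1.54) were higher against their fall overall. RAB11B (-2.24) and VAMP2 (-2.13) were far lower there, and V479 was the lowest or highest virgin library for each of these 6. Without V479, 32 members were called higher and 20 lower, of which 27 and 16 were called in all libraries too. The share of all rows called also rose in that fit, to 27.5% higher and 32.6% lower. Without L478 and L538, 27 members were called higher and 19 lower, with 24.1% and 31.6% of all rows. Of the 42 members not called, 16 gained a call on leaving out 1 library: 9 of them without V479 (RAB1B, RAB10, RAB40C, STX8, STX12, STX18, VAMP5, VAMP8 and STXBP6), and RAB19, RAB30, RAB31, RAB35, RAB37, STX11 and SNAP47 without others.

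**Figure D4:**
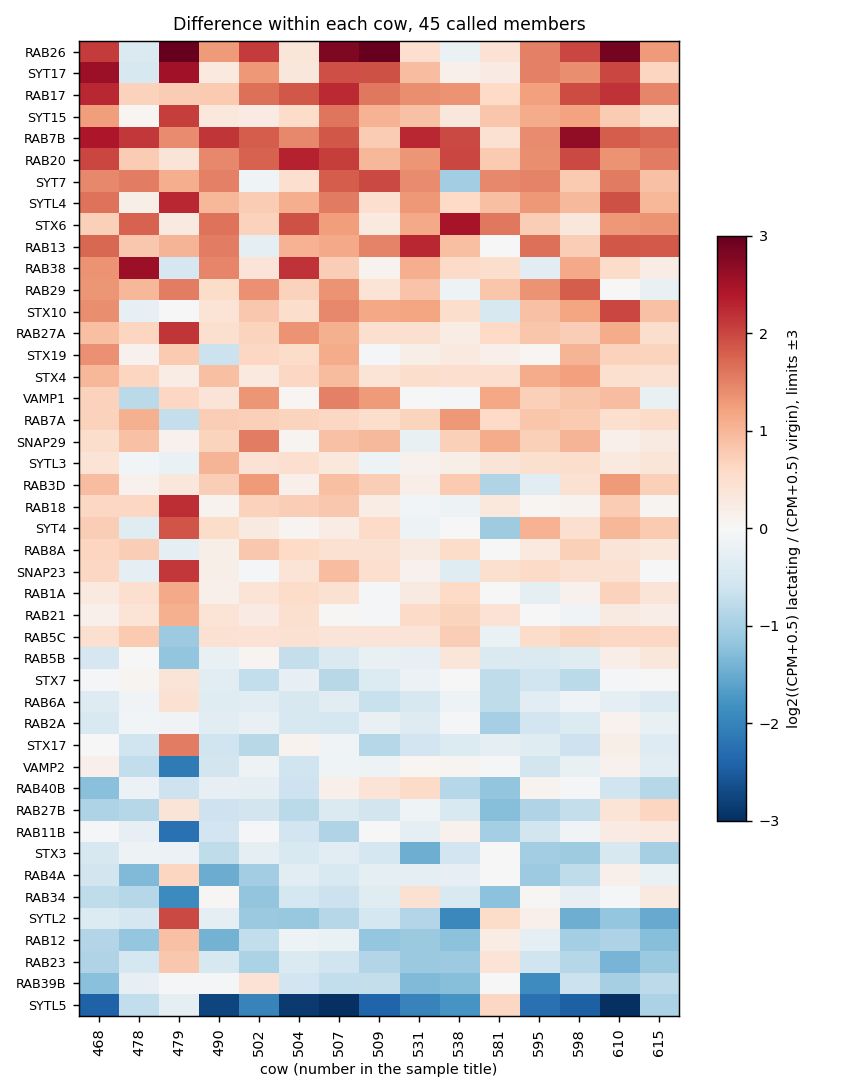
Difference between the lactating and the virgin library of each cow (columns) for the 45 called members (rows, sorted by log2 fold change), as log2 of the CPM ratio with 0.5 added, on a scale limited to 3 in either direction. Red is higher and blue lower in lactation, and the column of L479, compared with V479, departs from the others in many rows.

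Lactating libraries differed in milk gene counts, and their places for the members were as follows. RAB26 was lowest in L478 (0.0876 CPM) and L538 (0.109 CPM), and highest in L479 (7.54 CPM), the library with the largest milk share. In both L478 and L538, RAB26, SYTL4, SYT17, SNAP23, RAB8B, RAB34, RAB3A and STXBP5 lay below all other lactating libraries. STX6, STX11, RAB22A, RAB7A, RAB10, RAB14 and RAB1B lay above all others there. These 8 and 7 members are 9.2% and 8.05% of those tested, and over all tested loci both libraries lay below the rest at 8.75% and above it at 8.49%, so the members were near the background. SYT7 was also lowest in L538 (0.871 CPM) and highest in L479 (5.46 CPM). These positions are of libraries, and no test was made. Among virgin libraries, V509 had the largest milk share, 0.681%, and its RAB26 level lay within the virgin range.

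**Figure D5:**
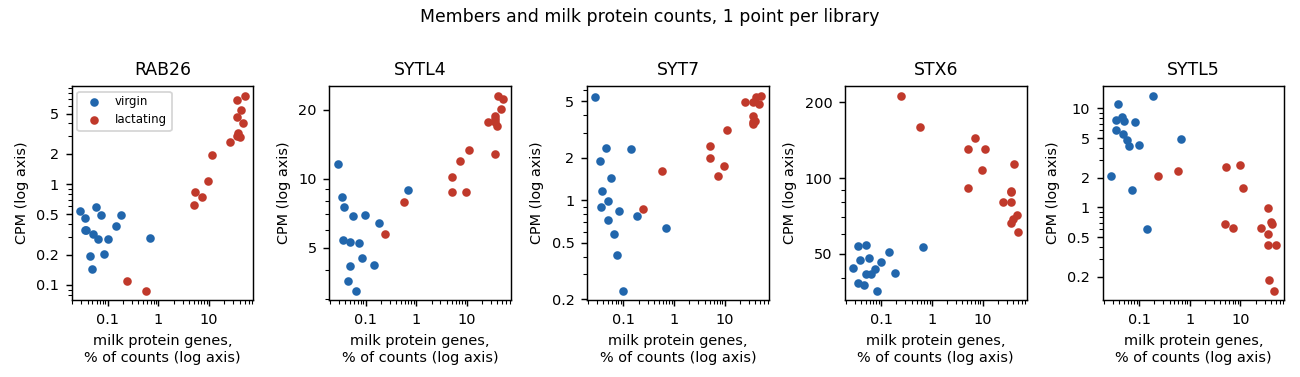
CPM of RAB26, SYTL4, SYT7, STX6 and SYTL5 (y axes, log scale) against the percentage of counts in 6 milk protein genes (x axes, log scale), 1 point per virgin (blue) or lactating (red) library. The lactating points with the lowest milk share, L538 and L478, lie lowest for RAB26 and SYTL4 and highest for STX6.

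Between libraries, members varied less in lactation. The SD of log2 CPM (0.5 added) was larger in the virgin group for 76 of 87 tested members, with a median of 0.46 in virgin and 0.28 in lactating libraries. Over all tested rows it was larger in the virgin group for 86.6%, with medians of 0.49 and 0.30, a share near that of the members.

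Other parts of the pathway were read from lists of 183 genes, of which 169 loci were tested: 26 were called higher and 48 lower, 15.4% and 28.4%, against 24.2% and 30.9% of all rows, with a median of -0.12. Regulators of the RAB cycle, which load, extract or switch off the GTPases, were called in 11 of 37 cases. TBC1D4, a RAB GTPase-activating protein of glucose transporter traffic, rose by 0.79 ± 0.13, and RABGGTA, a subunit of the enzyme that adds the lipid anchor to RAB proteins, fell by 0.73 ± 0.17. Of 36 RAB effectors 5 were called higher and 12 lower. RILP, which links RAB7 to dynein, rose by 2.31 ± 0.30 in 15 of 15 cows over a locus 4.03 times its span, and RIMS2, a RAB3 effector of release sites, fell by 2.11 ± 0.32 in 15 of 15 cows.

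Tethers and coats gave more falls than rises, as did all tested rows (30.9% lower and 24.2% higher). In the exocyst, which tethers vesicles to the plasma membrane, 1 of 11 subunits and relatives was called higher (EXOC3L1, 1.53 ± 0.42) and 4 lower (EXOC4, -0.47 ± 0.16). Among SNARE recycling factors and other SNAREs 2 of 28 were called higher and 10 lower, with BET1L, a Golgi SNARE, at -0.90 ± 0.11 and SCAMP4, a secretory carrier membrane protein, at 0.70 ± 0.14. Golgi tethers were called higher in 2 and lower in 6 of 17 cases, with COG1 at -0.64 ± 0.09 and GORASP1 at 0.68 ± 0.19. In the COPII and COPI coats 4 of 31 were called higher and 11 lower: SEC31A, of the COPII cage, fell by 0.77 ± 0.09 and ARF4, a Golgi GTPase, rose by 0.86 ± 0.08 in 15 of 15 cows. Over the exocyst, SNARE recycling factors, Golgi tethers and coats the shares lower were 36.4%, 35.7%, 35.3% and 35.5%, near the 30.9% of all rows. The shares higher were 9.09%, 7.14%, 11.8% and 12.9%, below the 24.2% of all rows, and the lists were not tested. Of 9 other small GTPases 4 were called higher and 2 lower, with RALB, an exocyst regulator, at 1.00 ± 0.16.

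In the authors' deposited table, whose q-values had to be under 0.05, lactation raised 11 of the 96 members and lowered 3. Over all its rows 10.8% were higher and 10.3% lower, against 11.5% and 3.12% of the members, so the share higher was near the background. SYT14 was too low to test in the present fit, and the other 13 had a call of the same sign in it.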

How the data were processed

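Poly-A RNA of the organoids was made into strand-specific libraries, per the labels' protocols. The authors deposited whole-number read counts per gene without normalization, a second table of RPKM values scaled by the authors to an effective library size, and, per the file headers, a log2 fold change and a q-value for each row. The build was UMD3.1 and the tools listed include featureCounts 1.5.2, HISAT2 2.0, edgeR, StringTie 1.3.2 and SAMtools, per the submitters' processing notes. Their settings are not given in the sources. Rows with identical counts were taken as 1 locus. The length behind each RPKM was recovered as the whole number that ties counts to RPKM (within 5.12e-09) and set against the gene span of the RefSeq table, which is of another build, so no coordinates are given.

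Counts were filtered with filterByExpr (minimum count 10, minimum total 15), which left 13180 rows and dropped 904, and fitted on all 31 libraries with edgeR 4.0.16 in R 4.3.3 (TMM, glmQLFit robust, glmQLFTest; glmTreat against a log2 fold change of 1 for changes over 2-fold), with group as the only term. The SE is the log2 fold change divided by the square root of F. Ranges over libraries were given, by rule, for a fixed set of 20 members and for the 12 called members that rose most and the 12 that fell most, where the average log2 CPM was 0 or more. Ranges or medians of RAB7A, RAB39B, STX11, STX19, SYT1, SYT4 and SYT15 were added after their values were seen. The members and lists were chosen with earlier results of these data known. Companion genes named were the called ones with the smallest p in each direction. Alternatives used limma 3.58.1 and DESeq2 1.42.0.

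The number in the titles is the cow, so it pairs the samples: deviations from the group mean correlated at 0.0347 to 0.391 (mean 0.213) within a cow and at -0.0156 on average between cows. The lactating library correlated best with the virgin library of its own cow in 7 of 15 cows, so the pairing rests on the titles. Every pair of libraries in a group differed by more than sampling noise (lowest chi-square per degree of freedom 36.8 in virgin and 47.7 in lactating pairs). The fit was tested on simulated data for this comparison (13180 rows): 18 of 50 rows changed 1.5-fold, 44 of 50 changed 2-fold and 48 of 50 changed 4-fold were recovered, with 5 of 165 calls on unchanged rows. The simulation changed few rows, as many up as down, left the milk genes equal between groups and drew libraries without pairing. It therefore cannot show how often a large shift in composition or the pairing of cows would give false calls. Values of a few genes of these lists are not reported here.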

Additional observations from a re-analysis of the deposited data

How the results depend on the processing

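Scaling mattered most. Without TMM factors 6 RAB GTPases were called higher and 28 lower (15 and 11 with them), and 5 SNAREs and regulators higher and 19 lower (13 and 6). By over 2-fold 2 members were then higher and 2 lower (6 and 1), and 6 companion genes higher and 117 lower (26 and 48). Of 24 members whose log2 fold change turned negative, 14 were called in at least 1 of the fits: RAB1A (-0.14), RAB2B (-0.40), RAB18 (-0.090), RAB33B (-0.41), RAB5C (-0.13), RAB15 (-0.38), RAB21 (-0.14), RAB8A (-0.089), RAB8B (-0.35), RAB3D (-0.00072), RAB28 (-0.33), STX5 (-0.44), SNAP23 (-0.16) and SYT4 (-0.12). The other 10, called in neither, were RAB3A, RAB24, RAB30, RAB31, RAB40C, STX8, VAMP8, STXBP5, SYT1 and SYT11. With a filter of 1 CPM in 15 libraries 3 members were higher by over 2-fold, since RAB26, SYT15 and SYT17 were then not tested. With no filter 2 were lower by over 2-fold, the other being SYT14. Without the 10 libraries of the 5 cows whose virgin title carries a letter, an alternative chosen after seeing the data like those without L478 and L538 and without V479, V490 and V509, 8 SNAREs and regulators were called higher, 3 members were higher by over 2-fold and 31 companion genes were lower, in a smaller fit where 18.3% of all rows were higher and 23.2% lower. RAB5B, RAB5C, RAB3D, STX7, STX10, STX17, STX19, SNAP23, SYT4 and SYTL3 lost their calls there, with adjusted p from 0.0592 to 0.353, and STX19 stood at 0.48 in place of 0.81.

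With the replicate block, a paired fit of 30 libraries, 31 members were called higher and 16 lower (27.9% and 27.8% of all rows), and the calls of RAB5B, RAB40C, STX8, STX11, STX17 and VAMP5 changed. The same 30 libraries without the block gave 27 and 16. DESeq2 size factors, library totals without milk genes, DESeq2 and limma-voom kept the counts of RAB GTPases and of SNAREs called in each direction within 1.5 times. Leaving out 1 library in turn gave 14 to 17 RAB GTPases higher and 10 to 13 lower, and 11 to 15 SNAREs and regulators higher and 4 to 8 lower. RAB1B then ran from -0.045 to 0.21, called only without V479. Pair ratios kept their calls with 10 added to each count and in an unpaired permutation. Members under about 1 CPM rest on few counts, and depth limits what can be said of them.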
